A study of Mus musculus with 7 samples.

Results

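The genes for 10 S100 proteins on mouse chromosome 3 were followed in skin: S100a3, S100a4, S100a6, S100a8, S100a9, S100a10, S100a11, S100a13, S100a14 and S100a16. They were taken by gene name, and all 10 of 10 were found among the 56691 genes counted. The knockout group was healthy-looking skin of 3 mice without Tuft1 (KO mice 2, 3 and 4), and it was set against healthy skin of 4 wild-type mice (WT mice 5, 6, 7 and 8), with 1 library per mouse. Strain, sex, age, body site and the part of Tuft1 that was removed are not given in the sources used here, and no further allele or treatment is named for either group. Tuft1 encodes tuftelin 1, which the study links to desmosomes.

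S100 proteins are small calcium-binding proteins with a pair of EF-hand loops, and most of them work as dimers that take hold of a partner protein when calcium rises. In mouse and human, most of their genes lie side by side at the edge of the epidermal differentiation complex, among genes of the cornified envelope. In skin they are known from keratinocytes (S100a10, S100a11, S100a14), from hair (S100a3), from fibroblasts and immune cells (S100a4, S100a6), and as alarmins of neutrophils and stressed epidermis (S100a8, S100a9).

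The genes fell into 2 clusters on the same side of Tuft1, which lies on the minus strand at bases 94520064 to 94566179 (mm39). The far cluster of 8, S100a13, S100a14, S100a16, S100a3, S100a4, S100a6, S100a8 and S100a9, started 4.144 to 3.963 Mb from the Tuft1 start, within the bases 90421742 to 90603028. S100a11 and S100a10 started 1.138 and 1.104 Mb from it, between bases 93427795 and 93471950. S100a9 lies on the minus strand and the other 9 on the plus strand. An exon of S100a3 overlaps exons of S100a2 and of the gene model Gm42674, and an exon of S100a4 overlaps one of Gm42674, and both of these other genes had 0 counts. Near the 3' end, 47.4% of the 50-base windows of S100a4 transcripts were shared with the overlapping Gm42674 (GENCODE transcripts of the GRCm38 build). Of those of S100a11, 42.1% were shared with 3 other gene models that held 0 to 2 counts each. How reads were split between genes with shared windows is uncertain.

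RefSeq promoter sequences (GRCm38.p6) matched 8 of the 10 genes. The 250 bases before the start site are shown for S100a4, the gene in which the groups were set apart, for its neighbour S100a6, for the alarmin S100a8, and for S100a11, the most abundant of the 10 in wild-type skin. Capitals mark the TATA box letters TATAAA, the AP-1 motif TGANTCA and the GC box GGGCGG, searched on both strands, and no marked motifs overlap here.
S100a4, chr3:90603520-90603769, plus strand: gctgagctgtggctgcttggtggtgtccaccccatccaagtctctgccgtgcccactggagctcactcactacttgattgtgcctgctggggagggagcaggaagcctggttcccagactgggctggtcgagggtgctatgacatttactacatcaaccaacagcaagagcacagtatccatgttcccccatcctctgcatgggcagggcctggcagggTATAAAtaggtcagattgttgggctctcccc
S100a6, chr3:90612644-90612893, plus strand: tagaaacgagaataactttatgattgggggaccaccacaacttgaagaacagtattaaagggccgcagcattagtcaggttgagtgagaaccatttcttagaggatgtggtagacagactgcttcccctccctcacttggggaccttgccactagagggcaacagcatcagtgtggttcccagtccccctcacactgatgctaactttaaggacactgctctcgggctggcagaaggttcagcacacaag
S100a8, chr3:90668821-90669070, plus strand: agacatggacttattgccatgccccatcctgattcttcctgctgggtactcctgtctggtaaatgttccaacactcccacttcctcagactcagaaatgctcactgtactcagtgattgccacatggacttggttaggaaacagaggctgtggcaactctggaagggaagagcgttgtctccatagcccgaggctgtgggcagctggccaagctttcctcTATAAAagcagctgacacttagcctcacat
S100a11, chr3:93520246-93520495, plus strand: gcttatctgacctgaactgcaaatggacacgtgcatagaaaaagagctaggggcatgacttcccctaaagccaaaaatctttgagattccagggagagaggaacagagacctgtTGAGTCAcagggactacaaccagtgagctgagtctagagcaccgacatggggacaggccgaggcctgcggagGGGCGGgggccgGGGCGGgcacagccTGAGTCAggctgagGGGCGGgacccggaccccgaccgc
S100a4 and S100a8 each held 1 TATAAA, at bases -31 to -26 and -30 to -25 from the start site. These letters were in 12.4% of 32851 promoter windows of the same length. The S100a11 window held 2 TGANTCA matches and 3 GGGCGG matches, against 6.75% and 32.7% of all windows with at least 1. The S100a6 window held none of the 3 motifs. A match is a description of the letters and no evidence of binding.

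Libraries held 7009237 to 9086523 counts in KO mice and 8490972 to 9256459 counts in WT mice. The kit reads the 3' end of each polyadenylated transcript, so levels are given as CPM scaled by TMM factors (counts relative to library size) and are not divided by length. Tuft1 was at 19.9, 29.1 and 17.2 CPM in KO mice 2, 3 and 4, against 106, 104, 55.6 and 114 CPM in WT mice 5, 6, 7 and 8, all 3 below all 4. Any reads from parts of the gene that were kept would add to these values. The log2 fold change of Tuft1 was -2.10 (SE 0.39). The removed gene itself was not called by edgeR's quasi-likelihood test over all genes (adjusted p = 0.1715). A gene that this test did not call is therefore not shown to be unchanged. Defining genes of skin were present in every library, with the 8 basal keratinocyte markers summing to 7925 to 11325 CPM in KO and 7275 to 10134 CPM in WT skin. KO mouse 2 stood apart in hair genes, as given with S100a3.

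As a family, the 10 genes took 0.344% to 0.439% of all counts in KO libraries and 0.297% to 0.367% in WT libraries, and these ranges overlap. S100a11, S100a6 and S100a14 were the most abundant in both groups. Levels in WT skin averaged 1082 ± 178 CPM for S100a11, 866 ± 117 CPM for S100a6, 679 ± 57.7 CPM for S100a14, 230.4 ± 53.3 CPM for S100a10, 227 ± 25.6 CPM for S100a4, 185 ± 31.0 CPM for S100a16 and 38.0 ± 16.2 CPM for S100a13 (SD, n = 4). S100a8, S100a9 and S100a3 were lower still. In this order the WT ranges of neighbours were separate between S100a6 and S100a14, between S100a14 and S100a10, and between S100a16 and S100a13. All other neighbours in the order overlapped in range. In KO skin the mean of S100a6 came above that of S100a11, and the mean of S100a4 above that of S100a10. The KO ranges overlapped in both pairs, and in KO mouse 3 S100a6 (867 CPM) lay below S100a11 (1012 CPM).

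**Figure D1:**
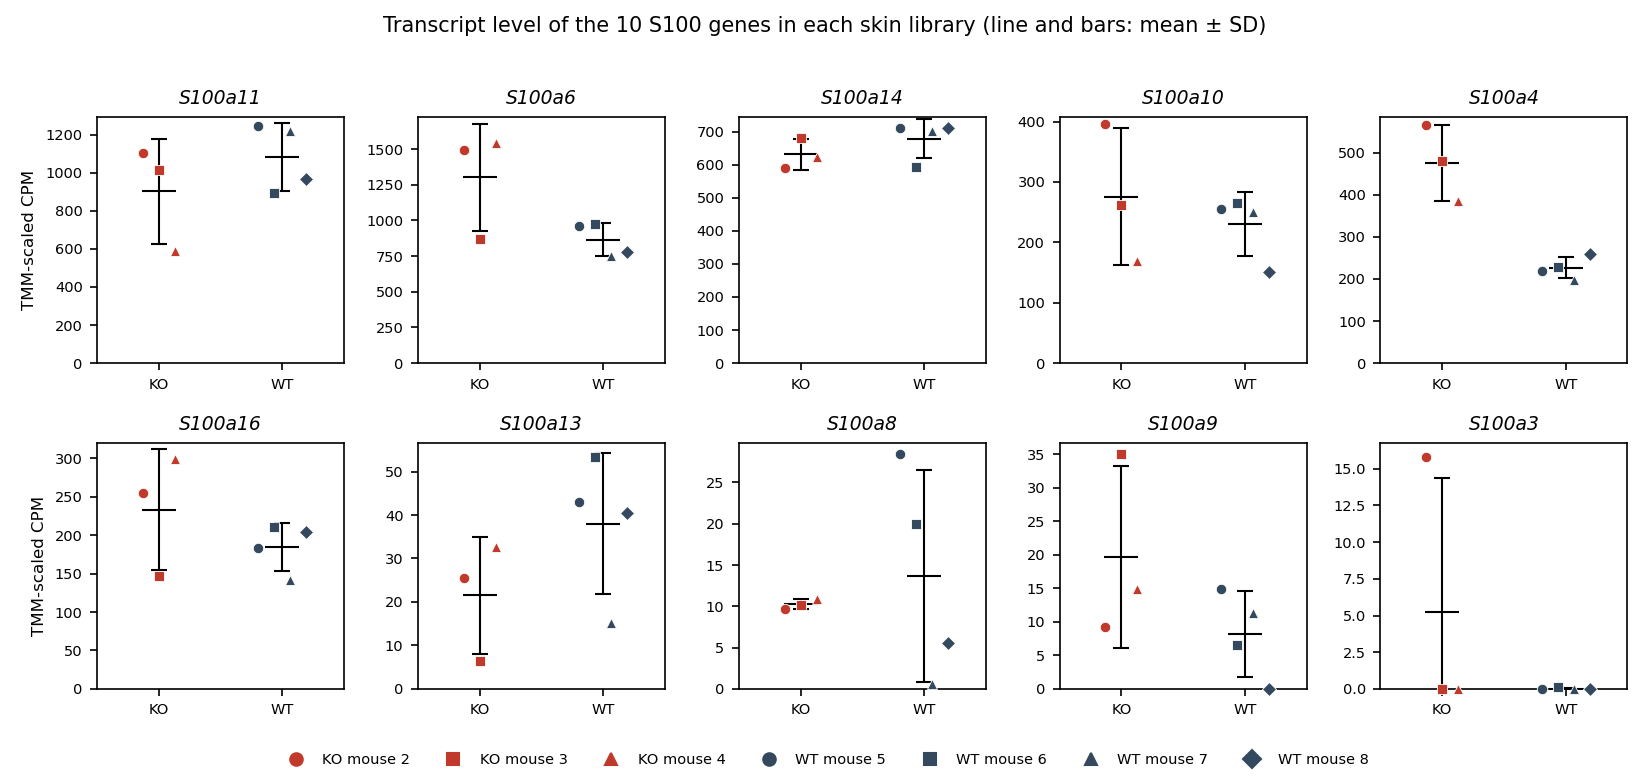
TMM-scaled CPM (y axis, linear, from 0, one scale per gene) of the 10 S100 genes in KO and WT skin. Each symbol is 1 mouse, and lines with bars give mean ± SD (n = 3 KO, n = 4 WT). S100a4 is the only panel in which all KO mice (384 to 565 CPM) lie above all WT mice (198 to 260 CPM), and S100a3 is seen in KO mouse 2.

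The filter on low counts kept 9 of the 10 genes for the test and left out S100a3. The question was which of them differ between knockout and wild-type skin. By edgeR's quasi-likelihood test, 0 of the 9 tested S100 genes passed an adjusted p of 0.05, where 0.0233% of the 12888 genes tested did. At an unadjusted p under 0.05 there were 2, S100a4 and S100a6, both higher, against 1.71% of all tested genes called higher in this way. The groups did not overlap in 1 of the 9, S100a4, against 3.44% of all tested genes with every KO mouse above every WT mouse. With a count of 1 or 2 genes, nothing is read from these shares about the family. The 9 log2 fold changes (KO over WT) were above 0 in 5 genes and below 0 in 4, with a median of 0.26 beside -0.01 over all tested genes.

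S100a4, known as a calcium-dependent partner of non-muscle myosin and abundant in fibroblasts and myeloid cells, stood at 565, 479 and 384 CPM in KO mice 2, 3 and 4, against 219, 229, 198 and 260 CPM in WT mice 5, 6, 7 and 8. Every KO mouse was above every WT mouse, and the lowest KO value exceeded the highest WT value. The mean was 476 ± 90.3 CPM (SD, n = 3) in KO skin and 227 ± 25.6 CPM (SD, n = 4) in WT skin, a ratio of 2.10. The log2 fold change was 1.07 (SE 0.21, 95% interval 0.61 to 1.53), and the edgeR quasi-likelihood test over 12888 genes gave an adjusted p = 0.245, so S100a4 was not called. It ranked 12 by p in the table, with an unadjusted p of 0.000228. The call depends on the test: S100a4 was called with DESeq2's Wald test (adjusted p = 1.71e-05), with limma-voom (adjusted p = 0.0251), with no filter on low counts (adjusted p = 0.0108) and when genes under a mean of 50 CPM were left out (adjusted p = 0.0197). The shares of all genes called higher under these 4 settings were 0.359%, 0.0543%, 0.178% and 0.287%. Without any 1 of the mice, its log2 fold change ran from 0.93 (without KO mouse 2) to 1.20 (without KO mouse 4), and its edgeR adjusted p from 0.349 to 0.841.

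Skin is a mixture of cells, and in such bulk libraries fewer cells of a type and less RNA per cell cannot be told apart. The summed markers of cell types that carry S100a4 overlapped between the groups. The 12 fibroblast markers summed to 11986 to 32083 CPM in KO and 11999 to 19928 CPM in WT skin, the 13 macrophage and monocyte markers to 654 to 1529 CPM in KO and 508 to 997 CPM in WT skin, and the 8 Schwann cell markers to 422 to 908 CPM in KO and 341 to 571 CPM in WT skin. Most of the fibroblast sum was Col1a1. Of the 12 tested fibroblast genes 8 had log2 fold changes above 0 and 4 below 0 (median 0.41). Of the 12 tested macrophage and monocyte genes 11 were above 0 and 1 below 0 (median 0.43), beside a median of -0.01 over all tested genes. KO mouse 2 had the highest S100a4 and the highest fibroblast and macrophage sums. KO mouse 4 had the lowest fibroblast sum of all mice, 11986 CPM, with S100a4 at 384 CPM, above every WT mouse. The macrophage sums of KO mice 3 and 4 lay inside the WT range. Relative to the collagen gene Col1a1, S100a4 stood at 0.0277, 0.0404 and 0.0464 in KO mice 2, 3 and 4, against 0.0277, 0.0217, 0.0210 and 0.0193 in WT mice 5, 6, 7 and 8, with KO mouse 2 and WT mouse 5 nearly level. Relative to vimentin (Vim), it stood at 0.365, 0.621 and 0.723 in KO mice 2, 3 and 4, against 0.258, 0.246, 0.180 and 0.256 in WT mice 5, 6, 7 and 8. The groups did not overlap in this ratio, as they did not in S100a4 alone. Vim itself averaged 950 ± 530 CPM (SD, n = 3) in KO and 974 ± 110 CPM (SD, n = 4) in WT skin. Other lists did separate the groups as S100a4 did. The 12 fat cell markers summed to 3369 to 5827 CPM in KO and 8485 to 14554 CPM in WT skin. The 12 suprabasal keratinocyte genes summed to 12313 to 18129 CPM in KO and 18830 to 23500 CPM in WT skin. Log2 fold changes of the 11 tested suprabasal genes were above 0 in 3 and below 0 in 8 (median -0.38). The 8 melanocyte markers summed to 86.7 to 107 CPM in KO and 11.7 to 63.4 CPM in WT skin, with Tyr at 0 in every library, and the 18 genes of stressed epidermis to 1052 to 1855 CPM in KO and 687 to 945 CPM in WT skin. Most of this last sum was Krt6a and Krt17, and the 8 tested genes of that list had 4 log2 fold changes above 0 and 4 below 0, with a median of -0.15. The part of any of these lists, or of Col1a1 and Vim, in the S100a4 difference was not tested.

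**Figure D2:**
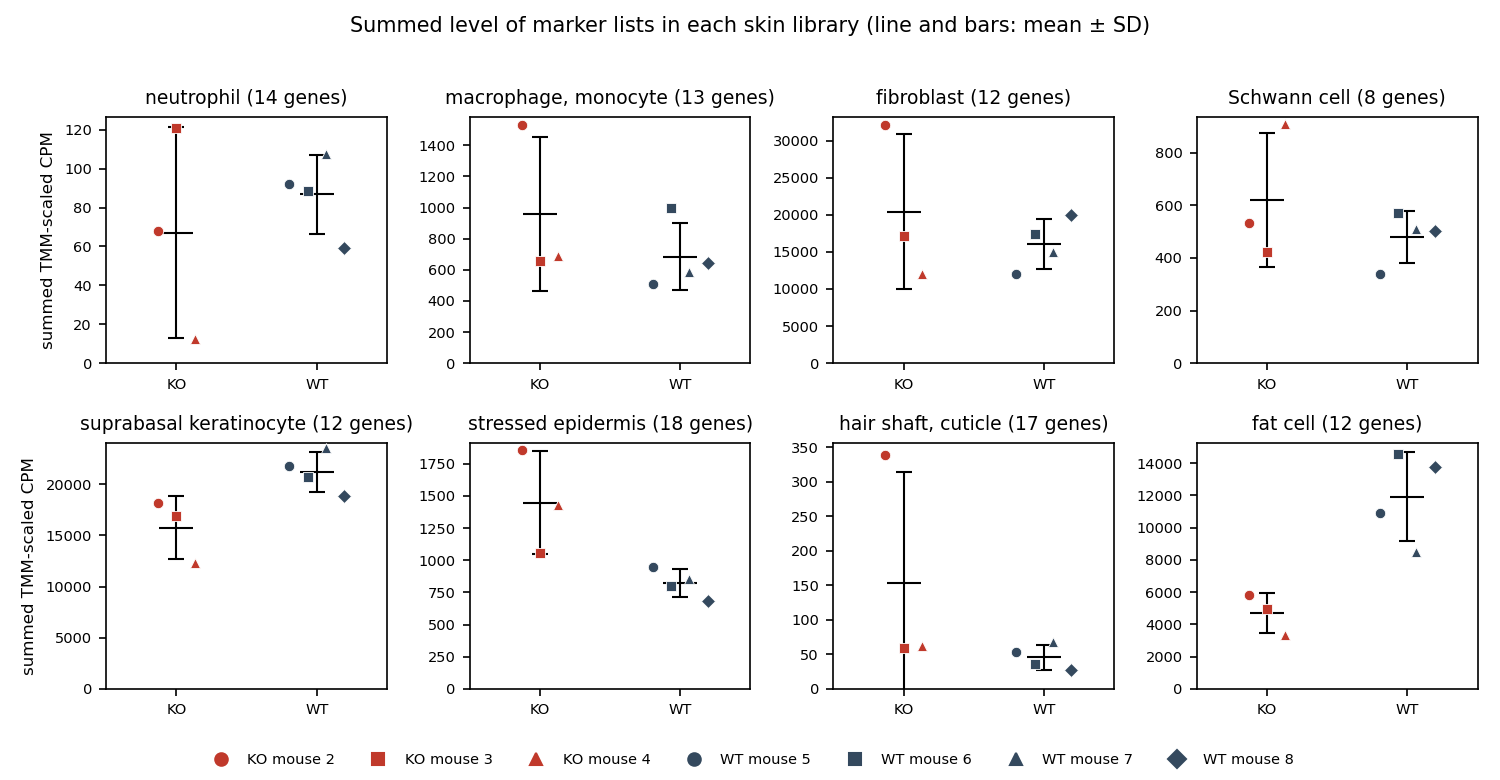
Summed TMM-scaled CPM (y axis, linear, from 0) of 8 marker lists in KO and WT skin. Each symbol is 1 mouse, and lines with bars give mean ± SD (n = 3 KO, n = 4 WT), with the lower bar of the hair list cut at 0. Fat cell and suprabasal sums are lower in every KO mouse, though 3 of the 11 tested suprabasal genes had log2 fold changes above 0. The stressed epidermis sum, most of it Krt6a and Krt17, is higher in every KO mouse. Neutrophil, macrophage, fibroblast and Schwann cell sums overlap.

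S100a6, or calcyclin, which binds annexins and the ubiquitin-ligase adaptor calcyclin-binding protein, lies next to S100a4 among the genes with counts. Its levels were 1493, 867 and 1545 CPM in KO mice 2, 3 and 4, against 959, 974, 749 and 780.1 CPM in WT mice 5, 6, 7 and 8. KO mice 2 and 4 were above all WT mice, while KO mouse 3 lay inside the WT range. The log2 fold change was 0.59 (SE 0.23, 95% interval 0.09 to 1.08), with an unadjusted p of 0.0236 and, in edgeR's quasi-likelihood test, an adjusted p of 0.9997. Over the 7 libraries, log2 CPM of S100a4 and S100a6 had a Pearson's r of 0.64 and a Spearman's rho of 0.54, as a description over mice of both groups. The highest such value within the family was that of S100a16 and S100a6 (r = 0.86, rho = 0.89), and the lowest that of S100a14 and S100a6 (r = -0.74, rho = -0.71), out of 36 gene pairs.

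S100a8 and S100a9 form calprotectin, the heterodimer that neutrophils and stressed keratinocytes release and that binds zinc and the receptor Tlr4. Both were scarce. S100a8 was at 9.71, 10.2 and 10.9 CPM in KO mice 2, 3 and 4, against 28.4, 19.9, 0.614 and 5.57 CPM in WT mice 5, 6, 7 and 8. The KO values were close together and lay inside the WT range. S100a9 was at 9.19, 34.9 and 14.9 CPM in KO mice, against 14.9, 6.53, 11.3 and 0 CPM in WT mice in the same order. KO mouse 3 was above every WT mouse, and KO mouse 4 was level with the highest of them, WT mouse 5. WT mouse 8 had 0 counts of S100a9, which allows up to 0.371 CPM at a limit of 3 counts, for counting error only. The log2 fold changes were -0.41 (95% interval -3.17 to 2.35) for S100a8 and 1.27 (95% interval -1.75 to 4.28) for S100a9, so the intervals take in differences of several-fold in either direction. Values of S100a8 varied by 94.0% of their mean between WT mice. The sign of the S100a8 estimate turned without WT mouse 5 (0.24) and in limma-voom (0.48). The partners did not rank the mice alike, with a Pearson's r of 0.15 and a Spearman's rho of 0.29 over 7 libraries.

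The cells and conditions known for these alarmins were read beside them. Of 14 neutrophil markers, 8 had 0 counts in all 7 libraries, among them Ly6g, Cxcr2, Csf3r, Mpo and Retnlg. The list summed to 12.2 to 121 CPM in KO and 59.0 to 107 CPM in WT skin. The stress keratin Krt6a was at 721, 322 and 481 CPM in KO mice 2, 3 and 4, against 74.0, 74.3, 135 and 124 CPM in WT mice 5, 6, 7 and 8, and was called higher (log2 fold change 2.32, SE 0.31, edgeR adjusted p = 0.0256), though closely similar keratin copies make its reads uncertain. Krt16 was at 59.7, 20.9 and 18.8 CPM in KO mice, against 0, 1.80, 9.08 and 6.19 CPM in WT mice. Every KO mouse was above every WT mouse in Krt16, as in 3.44% of all tested genes, and it was not called (edgeR adjusted p = 0.9997). Krt17 overlapped between the groups, at 825 ± 139 CPM (SD, n = 3) in KO and 601 ± 108 CPM (SD, n = 4) in WT skin. Beside these keratins, S100a8 averaged 10.3 ± 0.609 CPM in KO and 13.6 ± 12.8 CPM in WT skin, and S100a9 19.7 ± 13.5 CPM in KO and 8.17 ± 6.43 CPM in WT skin (SD, n = 3 KO, n = 4 WT). Of the 5 other tested genes of the stressed epidermis list, named after their values were seen, 4 had lower averages in KO skin and 0 were called. The alarmin cytokine Il33 was at 19.3, 26.1 and 26.4 CPM in KO mice 2, 3 and 4, against 41.0, 53.1, 34.4 and 32.2 CPM in WT mice 5, 6, 7 and 8. Every KO mouse was below every WT mouse in Il33, as in 3.45% of all tested genes (edgeR adjusted p = 0.9997). The growth factor Areg had 0 counts in all 3 KO mice, against 298, 69, 320 and 0 counts in WT mice (edgeR adjusted p = 0.729). Hbegf averaged 21.0 ± 17.6 CPM in KO and 35.7 ± 10.4 CPM in WT skin, and the defensin Defb14 3.04 ± 2.63 CPM in KO and 7.16 ± 5.47 CPM in WT skin, while the stefin Stfa3 averaged 5.87 ± 5.08 CPM in KO and 3.39 ± 6.40 CPM in WT skin.

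S100a10, the light chain that binds a pair of annexin A2 molecules at the cell membrane, stood at 395, 261 and 169.8 CPM in KO mice 2, 3 and 4, against 255, 264, 251 and 151 CPM in WT mice 5, 6, 7 and 8. KO mouse 2 was above and KO mouse 4 near the bottom of the WT range. The log2 fold change was 0.26 (95% interval -0.39 to 0.90), and it was -0.10 without KO mouse 2. S100a11, which binds annexin A1 and becomes cross-linked into the cornified envelope, was at 1103, 1012 and 590.3 CPM in KO mice, against 1246, 895, 1222 and 966 CPM in WT mice. KO mouse 4 lay below all WT mice, and the log2 fold change was -0.26 (95% interval -0.78 to 0.26). KO mouse 4 also had the lowest suprabasal keratinocyte sum, 12313 CPM, whose part in these values was not tested.

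S100a14, an epithelial member, varied by 7.25% of its mean in KO and 8.50% in WT skin (SD over mean), the lowest share of the 10 genes in WT skin. It was at 589, 679.6 and 624 CPM in KO mice 2, 3 and 4, against 709, 593, 703 and 712 CPM in WT mice 5, 6, 7 and 8. The groups overlapped, with WT mouse 6 at the KO level. The log2 fold change was -0.11 (SE 0.19), and its 95% interval of -0.51 to 0.30 leaves out a doubling or halving. S100a16, a broadly expressed member, was at 255, 147 and 299 CPM in KO mice, against 183, 211, 142 and 204 CPM in WT mice, with a log2 fold change of 0.34 (95% interval -0.25 to 0.92). S100a13, which takes part in the release of Fgf1 and Il1a without a signal peptide, was at 25.5, 6.50 and 32.6 CPM in KO mice, against 43.1, 53.4, 15.1 and 40.5 CPM in WT mice, with a log2 fold change of -0.82 (95% interval -2.27 to 0.63). None of these 3 genes was called, and all had an edgeR adjusted p of 0.9997.

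**Figure D3:**
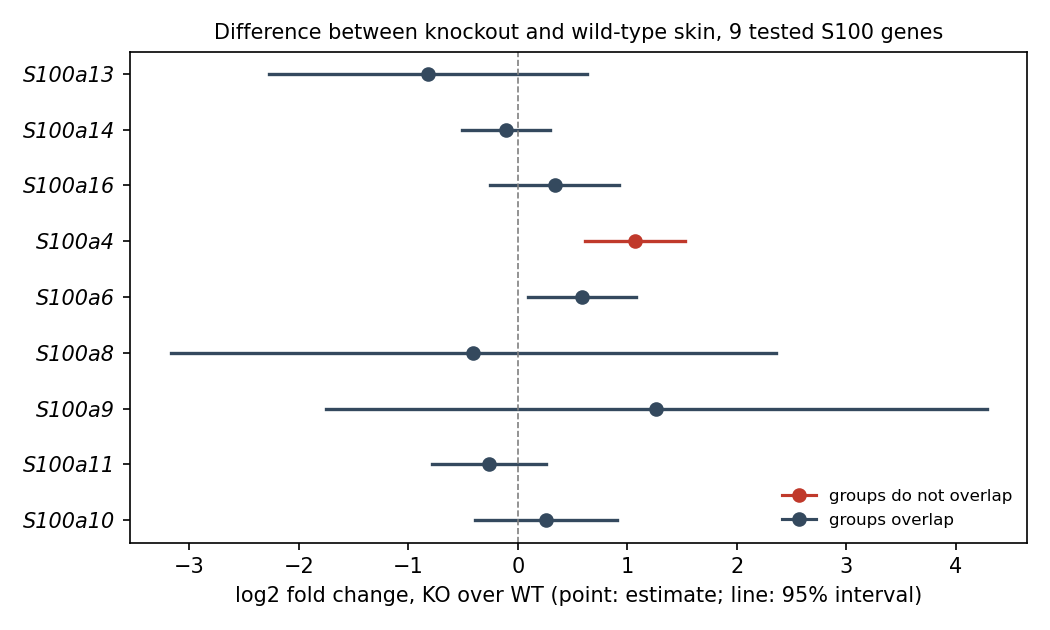
Log2 fold change of KO over WT (x axis) for the 9 tested S100 genes in chromosomal order from S100a13 at the top. Points are estimates and lines 95% intervals from edgeR's quasi-likelihood test (n = 3 KO, n = 4 WT). The S100a4 interval, 0.61 to 1.53, and the S100a6 interval, 0.09 to 1.08, lie above 0, and those of S100a8 and S100a9 are the widest.

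S100a3, a protein of the hair cuticle that is modified by the arginine deiminase Padi3, was seen in 1 mouse. It had 122 counts (15.8 CPM) in KO mouse 2 and 0 in KO mice 3 and 4, against 1 count in WT mouse 6 and 0 in WT mice 5, 7 and 8. It failed the filter on low counts and was not tested. KO mouse 2 was also high in hair genes. The 17 hair shaft markers summed to 339, 59.9 and 61.8 CPM in KO mice 2, 3 and 4, against 27.4 to 67.6 CPM in WT mice. Tchh, the trichohyalin of the hair root sheath, was at 239, 0 and 10.3 CPM in KO mice, against 0, 5.07, 0 and 9.41 CPM in WT mice. The part of hair growth in the S100a3 value was not tested. Padi3 had 0 counts in every library.

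Partners and receptors of S100 proteins were read from a list of 26 genes, 22 of them tested. None was called by edgeR's quasi-likelihood test (0.0233% of all tested genes were), and at an unadjusted p under 0.05 there was 1, Cd36, lower in KO skin, a share near the 4.31% of all tested genes in either direction. DESeq2 and limma-voom both called Cd36 lower, as they did 0.661% and 0.116% of all genes. The edgeR test also called Cd36 with no filter on low counts and with the filter at a mean of 50 CPM. Those 2 settings called 76 and 25 genes among all tested. The scavenger and fatty acid receptor Cd36, to which S100a8 and S100a9 with bound arachidonic acid are known to attach, was at 180, 127 and 164 CPM in KO mice 2, 3 and 4, against 385, 503, 363 and 409.8 CPM in WT mice 5, 6, 7 and 8. All KO mice were below all WT mice (log2 fold change -1.40, SE 0.23, edgeR adjusted p = 0.0905), as in 3.45% of all tested genes. Fat cells carry Cd36 as well, and the fat cell sums given above were also lower in every KO mouse. The part of fat cells in the Cd36 difference was not tested. The median over the 22 was -0.27, beside -0.01 over all tested genes.

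Annexins and other partners overlapped between the groups. Anxa2, the partner of S100a10, was at 1216 ± 126 CPM (SD, n = 3) in KO and 1438 ± 324 CPM (SD, n = 4) in WT skin. Its ratio to S100a10 was 3.44, 4.34 and 6.80 in KO mice 2, 3 and 4, against 6.83, 6.32, 4.26 and 8.39 in WT mice 5, 6, 7 and 8. Anxa1, the partner of S100a11, was at 588 ± 140 CPM in KO and 719.7 ± 84.3 CPM in WT skin (log2 fold change -0.29, SE 0.22). Myh9, the myosin heavy chain bound by S100a4, was at 135 ± 18.3 CPM in KO and 130.3 ± 31.4 CPM in WT skin, with a log2 fold change of 0.05 (95% interval -0.53 to 0.63). The scaffold Ahnak, which binds S100a10 with annexin A2, was at 1093 ± 122 CPM in KO and 1241 ± 162 CPM in WT skin. Annexins Anxa5 and Anxa11 had log2 fold changes of 0.29 and 0.33, Anxa6 and Anxa7 of -0.21 and -0.25, and the membrane linker Ezr of -0.16. Tlr4 had counts in KO mice 2 and 4 and WT mouse 6, and Ager, the receptor for glycation end products, was at 4.92 CPM or less in each library.

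The fused-type S100 genes, whose proteins begin with an S100 domain and make up the keratohyalin of the granular layer and the hair root sheath, lie between the far S100 cluster and Tuft1. Of 7, 6 were tested, and 0 were called by edgeR's quasi-likelihood test, where 0.0233% of all tested genes were. Flg, the filaggrin precursor, was at 169, 141 and 128 CPM in KO mice 2, 3 and 4, against 71.4, 46.1, 77.0 and 79.5 CPM in WT mice 5, 6, 7 and 8. All KO mice were above all WT mice, as in 3.44% of all tested genes. Its log2 fold change of 1.09 (SE 0.28) was not called by edgeR (adjusted p = 0.519). It was called by DESeq2's Wald test, which called 0.359% of all genes higher. Its close relative Flg2 was at 895 ± 278 CPM in KO and 1256 ± 203 CPM in WT skin, with an estimate of -0.49 on the log2 scale (SE 0.24). Hrnr was at 102 ± 27.2 CPM in KO and 89.8 ± 6.05 CPM in WT skin. At an unadjusted p under 0.05 there were 2 of the 6, Flg and Tchh, both higher, against 1.71% of all tested genes, and Tchh rests on KO mouse 2. Among other S100 genes, S100a1 of heart and muscle, which starts back to back with S100a13, was at 104 ± 56.9 CPM in KO and 117 ± 38.7 CPM in WT skin.

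Because the family lies near the targeted gene, all genes within 5 Mb of Tuft1 were set beside it. Of 152 tested genes there, 0 were called by edgeR's quasi-likelihood test, 5 by DESeq2 (1.02% of all genes) and 2 by limma-voom (0.171% of all genes), S100a4 being among the called in both. At an unadjusted p under 0.05 there were 6 higher and 4 lower, 6.58% of the 152 against 4.31% of all tested genes. The groups did not overlap in 11 of them, 7.24% against 6.89% of all tested genes. The median log2 fold change was -0.04, beside -0.01 over all tested genes. Within the S100 cluster itself, S100a4 at 1.07 had as its tested neighbours S100a6 at 0.59 and, on the other side, S100a16 at 0.34, while S100a14 and S100a13 were at -0.11 and -0.82.

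**Figure D4:**
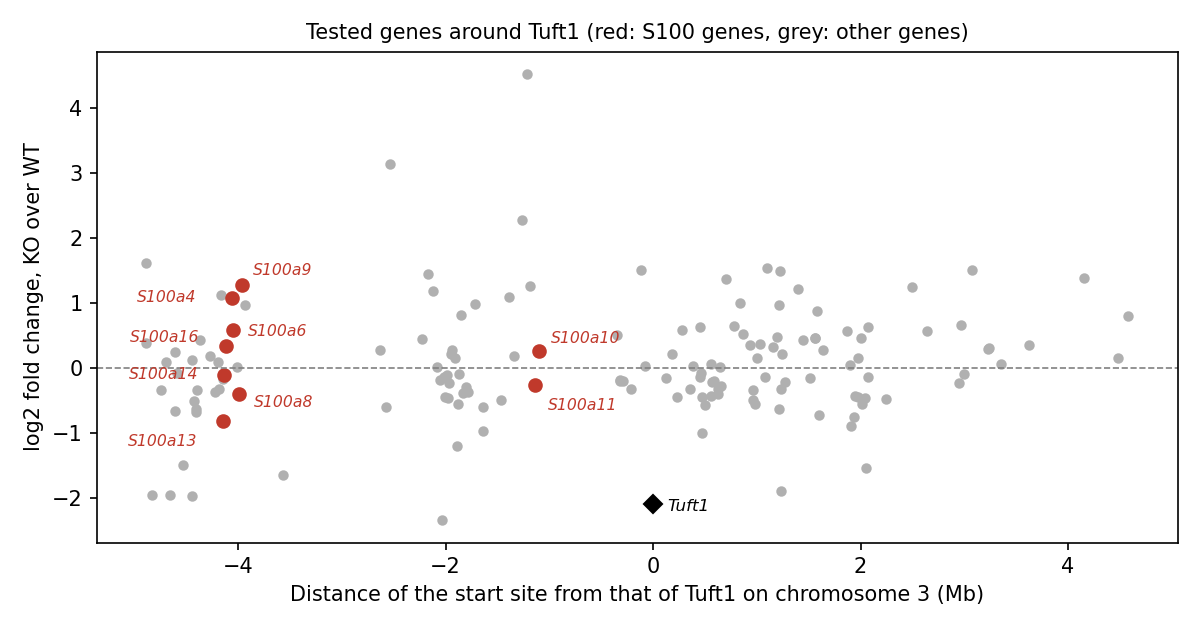
Log2 fold change of KO over WT (y axis) against the distance of each gene's start site from that of Tuft1 (x axis, Mb) for the 152 tested genes within 5 Mb. Red points are the 9 tested S100 genes, grey points other genes, and the black diamond is Tuft1. The S100 genes of the far cluster spread from -0.82 (S100a13) to 1.27 (S100a9), and S100a10 and S100a11 lie near 0.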

How the data were processed

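Polyadenylated RNA from powdered frozen skin was made into QuantSeq 3' libraries, per the labels' protocols. The deposited table holds raw counts per gene, made by the authors. Per the submitters' processing notes, the build was mm39 and the tools were STAR, featureCounts, Subread 2.0.3, GATK 4.2.4.0 and edgeR 3.36.0, in no stated order. Use of strand in the counting: not given in the sources used here. Another deposited table of log2 values, filtered and normalized by the authors, was recovered from the counts as log2 CPM with a prior count of 2 in all 90678 values (tolerance 1e-09) and was not used further. It holds 9 of the 10 genes.

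Mice were grouped by the genotype label. Counts of 7 libraries were filtered with edgeR's expression filter (minimum 10 counts), scaled with TMM factors and tested with the quasi-likelihood F test (edgeR 4.0.16, R 4.3.3), with Benjamini-Hochberg adjustment over 12888 genes. Standard errors come from the F statistic, and 95% intervals from these errors and the total degrees of freedom of the test (residual plus prior). The procedure was tested on simulated data. Limits at 0 counts cover counting error only, since the reads were counted without molecular tags.

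The genes, marker lists and partners were chosen with earlier results of these data known. Named were all 10 genes, Tuft1, listed partners, other S100 and fused-type genes averaging at least 100 CPM or without overlap, and 3 stress keratins. Genes named beyond that were chosen after their values were seen. Alternatives were DESeq2 1.42.0 (size factors and Wald test), no scaling factors, limma-voom (limma 3.58.1), no filter, a filter at a mean of 50 CPM, a window of 2 Mb, genes without exon overlap, and each mouse left out. Promoters came from RefSeq, and shared windows of 50 bases were sought in the last 500 bases of GENCODE M21 transcripts.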

Additional observations from a re-analysis of the deposited data

Results flagged for a closer look

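In 44 genes of the family, its partners and the stress keratins, the 4 WT values were searched for a mouse far from the other 3, and 6 were found. The limit used is passed by about 1 in 20 groups of normally distributed values. Values at 0 counts do not follow that rate, so no excess over chance is read from the 6. S100a10 was at a log2 CPM of 7.24 in WT mouse 8, against 7.97 to 8.05 in the other WT mice. S100a14 was at 9.21 in WT mouse 6, against 9.46 to 9.48. Tuft1 was at 5.80 in WT mouse 7, against 6.70 to 6.84, and Fgfr1 at 4.51 in the same mouse, against 6.31 to 6.60. Tlr4 was at 4.69 in WT mouse 6 and Rptn at 2.86 in WT mouse 5, each with 0 counts in the other 3 WT mice. With 3 equal values the search flags the remaining mouse whatever its level.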

How the results depend on the processing

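Calls depended on the test and the filter. Over all genes, 3 were called, against 125 with DESeq2's Wald test, 22 with limma-voom, 76 with no filter on low counts and 25 with a filter at a mean of 50 CPM, and 0 to 1 with a mouse left out. Of the S100 genes 0 were called, against 1 (S100a4) under each of those 4 settings, and 0 with any mouse left out. Of partners, other S100 genes and fused-type genes 0 were called, against 2, 1, 2 and 1 in the same order and 0 with a mouse left out. Around Tuft1 0 were called, against 5, 2, 5 and 1, and 0 with a mouse left out or within 2 Mb. The Tuft1 log2 fold change of -2.10 became a call with DESeq2 (-2.09), with no filter (-2.11) and with the filter at 50 CPM (-2.07), and ran from -2.35 to -1.96 with a mouse left out. The median of the tested S100 genes ran from -0.063 to 0.32 with a mouse left out (lowest without KO mouse 2). With a mouse left out, S100a8 ran from -0.81 to 0.24 (above 0 without WT mouse 5) and S100a10 from -0.10 (without KO mouse 2) to 0.51, and S100a8 was at 0.48 in limma-voom. Under the filter at 50 CPM fewer genes were tested. The unadjusted p of S100a4 in edgeR's quasi-likelihood test also moved there, from 0.000228 to 6.63e-05. The causes of the changes in calls were not tested. Of 114 values of single S100 genes under the alternatives, 107 kept direction and call, 4 became calls (S100a4) and 3 turned. No paired analysis was possible because no mouse number occurs in both groups. Counts were lowest, and counting error so largest, for S100a3, S100a8 and S100a9, at 123, 740 and 784 counts over 7 libraries.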

Other observations

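Further S100 genes had few counts. S100a7a, a gene of the same cluster, had 47 counts in KO mouse 2 and 0 in the other 6 mice. S100g, a calcium-binding gene on the X chromosome, had 194 counts in KO mouse 4 and 96 in WT mouse 7, and 0 elsewhere. S100z had 16 counts in KO mouse 2 and 64 in WT mouse 7. S100b, a gene of Schwann cells and melanocytes, was at 7.56 ± 6.43 CPM (SD, n = 3) in KO and 14.8 ± 7.90 CPM (SD, n = 4) in WT skin. S100a5 and S100a2 had 0 counts in every library.

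Among 3484 other genes averaging at least 50 CPM, those most like S100a4 across the 7 mice of both groups were Mmp14 (Pearson's r = 0.96), Apoe (r = 0.95) and Defb8 (r = 0.95). For S100a6 they were Postn (r = 0.93), Tcf12 (r = 0.92) and Ube2r2 (r = 0.92), with 1 predicted gene or pseudogene passed over. Tcf12 and Ube2r2 were also among the 3 most like S100a16 (r = 0.94 and 0.92). For S100a11 they were Hnrnpl (r = 0.98), Fgfr2 (r = 0.97) and Rnf141 (r = 0.97). These are the highest of many values over 7 libraries that share 1 scaling, and are given as descriptions.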
